A study of Mus musculus with 15 samples.

Results

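A set of 9 genes that restrain cell division was followed in mouse embryonic stem cells in which 1 protein of the large ribosomal subunit had been knocked down. They were the 7 genes of the cyclin-dependent kinase inhibitors (Cdkn1a, Cdkn1b, Cdkn1c, Cdkn2a, Cdkn2b, Cdkn2c and Cdkn2d) and 2 growth-restraining targets of p53 (Btg2 and Plk2). The members were taken by symbol, 9 of 24819 genes in the deposited tables. The RNA was from E14, a line of mouse embryonic stem cells kept on gelatin in serum with leukemia inhibitory factor. Cells were transfected with siRNA against Rpl11 (siRpl11), Rpl14 (siRpl14), Rpl18 (siRpl18) or Rpl23 (siRpl23), or with the control siRNA (siNT), and all 5 groups had the same line, medium and transfection. The titles give 48 h and the treatment protocol gives 3 days, and which of them holds was not settled. Each group had 3 libraries, of which replicates 1 and 2 were in 1 table (10 libraries) and the third was in a table normalized separately (5 libraries).

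Cyclin-dependent kinases drive the cell cycle when bound to cyclins, and their inhibitors form a pair of families. CIP/KIP proteins (p21 from Cdkn1a, p27 from Cdkn1b, p57 from Cdkn1c) bind cyclin and kinase together. INK4 proteins (p16 from Cdkn2a, p15 from Cdkn2b, p18 from Cdkn2c, p19 from Cdkn2d) bind Cdk4 and Cdk6 and keep D cyclins off them. Cdkn2a also encodes Arf from another first exon, which inhibits Mdm2, the ubiquitin ligase that degrades p53. Free ribosomal proteins such as Rpl11 bind Mdm2 when ribosome assembly is disturbed, which lets p53 accumulate. Cdkn1a is the best known p53 target, Btg2 encodes a BTG/TOB protein that binds the CCR4-NOT deadenylase, and Plk2 encodes a polo-like kinase involved in centriole duplication. Embryonic stem cells cycle with a short G1 phase and low levels of several of these inhibitors.

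Promoter sequence was read for the members because 5 of them rose in all 4 knockdowns, as described after the sequences. The RefSeq table (GRCm38.p6) held 11 windows for 8 of the 9 members, and the 250 bases before each start were searched on both strands. The 4 windows shown are those that held a pair of half-sites of the p53 response element, or the palindrome TGACGTCA, the core of the cAMP response element. Matches are in capitals, and each sequence runs 5′ to 3′ on the strand of its gene up to the annotated start.
Cdkn1a, chr17:29090729-29090978, plus strand: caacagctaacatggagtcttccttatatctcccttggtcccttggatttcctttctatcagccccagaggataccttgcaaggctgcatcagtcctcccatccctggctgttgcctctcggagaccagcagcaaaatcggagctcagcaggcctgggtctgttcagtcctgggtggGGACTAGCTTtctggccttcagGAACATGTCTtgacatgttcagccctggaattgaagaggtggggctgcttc
Btg2, chr1:134079156-134079405, minus strand: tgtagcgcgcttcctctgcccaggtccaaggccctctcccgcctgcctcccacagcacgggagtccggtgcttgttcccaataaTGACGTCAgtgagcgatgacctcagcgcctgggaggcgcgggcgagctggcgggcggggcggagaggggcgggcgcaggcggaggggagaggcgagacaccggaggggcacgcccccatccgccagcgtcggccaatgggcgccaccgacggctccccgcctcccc
Cdkn2b, chr4:89311033-89311282, minus strand: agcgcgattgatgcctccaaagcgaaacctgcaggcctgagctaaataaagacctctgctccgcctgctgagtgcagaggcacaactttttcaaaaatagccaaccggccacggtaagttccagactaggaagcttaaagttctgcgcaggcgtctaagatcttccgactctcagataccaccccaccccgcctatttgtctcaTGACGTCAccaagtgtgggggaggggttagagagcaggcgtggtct
Plk2, chr13:110394794-110395043, plus strand: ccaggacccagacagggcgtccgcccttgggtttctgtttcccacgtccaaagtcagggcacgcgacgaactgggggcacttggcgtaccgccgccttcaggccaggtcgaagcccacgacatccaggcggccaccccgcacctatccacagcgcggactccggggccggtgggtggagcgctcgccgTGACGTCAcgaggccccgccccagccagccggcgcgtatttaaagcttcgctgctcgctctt
In Cdkn1a the window is that of the upstream of 2 annotated starts, and its 2 exact half-sites began 73 and 51 bases before the start, with 12 bases between them. Such a pair, at most 13 bases apart, was in 21 of 32851 windows of the same length (0.0639%), and at least 1 half-site was in 7.13% of them. Only exact half-sites were searched and marked. The 10 bases directly after the second one in Cdkn1a (tgacatgttc) differ from a half-site at 1 base and so stay in lower case. Which of these stretches form a response element was not tested. Cdkn2d held 1 half-site alone, and no other member window held an exact one. TGACGTCA began 166 bases before the start in Btg2, 46 in Cdkn2b and 62 in Plk2, and was in 508 of the 32851 windows (1.55%). This motif was searched after the windows had been read, so its share describes the windows and tests nothing. The second Cdkn1a start and both Cdkn2a starts held neither motif. A match in these letters does not show that a factor binds there.

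Values are FPKM as deposited, reads per length and library size, so levels can be set beside each other across genes. Differences are taken in log2(FPKM + 1), where the added 1 shrinks the change of genes near or under 1 FPKM, and stand as limma's estimate ± SE over replicates 1 and 2 (n = 2 per group). The p-values are adjusted over the 12249 genes tested, and a gene was called at an adjusted p under 0.05. The third libraries entered no test unless all 15 libraries are named. The knocked-down genes were left at 24.0% (Rpl11 in siRpl11), 51.6% (Rpl14 in siRpl14), 32.6% (Rpl18 in siRpl18) and 36.3% (Rpl23 in siRpl23) of their siNT FPKM. Absolute depth is unknown, and depth relative to the first siNT library was 0.694 to 1.40 in the first table. Across genes, replicates 1 and 2 of a group correlated with r of 0.991 to 0.996. Nothing in the labels says that replicates were separate cultures, so the p-values cover only the variation among the libraries at hand, which could be technical. In bulk RNA, fewer cells with a transcript and less of it per cell cannot be told apart.

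Cdkn1a was the most abundant inhibitor in siNT and more than doubled in FPKM in siRpl14, siRpl18 and siRpl23. Its FPKM was 52.5 and 48.3 in siNT, 52.1 and 55.7 in siRpl11, 116 and 113 in siRpl14, 126 and 132 in siRpl18, and 121 and 109 in siRpl23. The siRpl11 and control libraries overlapped, and the other 6 knockdown libraries all lay above both. The log2 differences from siNT were 1.17 ± 0.06 in siRpl14 (adjusted p = 1.75e-07), 1.34 ± 0.06 in siRpl18 (adjusted p = 5.40e-08) and 1.17 ± 0.06 in siRpl23 (adjusted p = 1.48e-07). In siRpl11 the difference was 0.09 ± 0.06 (adjusted p = 0.192, 95% interval -0.04 to 0.23). That value became a call under median-ratio scaling (0.23, adjusted p = 0.00518) and with all 15 libraries (0.21, adjusted p = 0.038). In the third libraries Cdkn1a was at 42.7 FPKM in siNT, 58.2 in siRpl11, 133 in siRpl14, 146 in siRpl18 and 136 in siRpl23, so siRpl11 lay above siNT there. The strand setting of the counting is not given in the sources used here, and Cdkn1a and Cdkn1c each overlap an antisense transcript in GENCODE M21, so reads of the partner may be included.

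Cdkn1b varied little across the experiment. It was at 15.2 and 14.5 FPKM in siNT, 12.4 and 14.2 in siRpl11, 12.8 and 13.5 in siRpl14, 13.5 and 16.2 in siRpl18, and 13.4 and 14.4 in siRpl23. The siNT libraries were above those of siRpl11, siRpl14 and siRpl23 and overlapped with siRpl18, and the margins were small. No difference from siNT was called by limma, at an adjusted or an unadjusted p under 0.05, and the estimates ran from -0.16 in siRpl14 (95% interval -0.36 to 0.03) to -0.01 in siRpl18 (-0.21 to 0.19). In the third libraries siNT was again the highest, at 20.6 FPKM, with the knockdowns between 18.7 and 19.6. Quantile normalization made a call of the siRpl14 value (-0.24, adjusted p = 0.0365).

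Cdkn1c, an imprinted gene expressed from the maternal allele, rose in all 4 knockdowns by a modest amount. It was at 14.9 and 15.6 FPKM in siNT, 20.4 and 19.4 in siRpl11, 18.8 and 17.5 in siRpl14, 23.7 and 25.1 in siRpl18, and 20.97 and 21.3 in siRpl23. Every knockdown library of the first table lay above both controls, with siRpl18 the highest. The log2 differences were 0.36 in siRpl11 (adjusted p = 1.87e-04), 0.24 in siRpl14 (adjusted p = 3.64e-03), 0.64 in siRpl18 (adjusted p = 3.80e-06) and 0.44 in siRpl23 (adjusted p = 5.59e-05), each ± 0.05. In the third libraries the differences had the same sign but were 0.04 in siRpl11 (21.8 against 21.1 FPKM) and 0.26 to 0.27 in the other knockdowns.

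**Figure D1:**
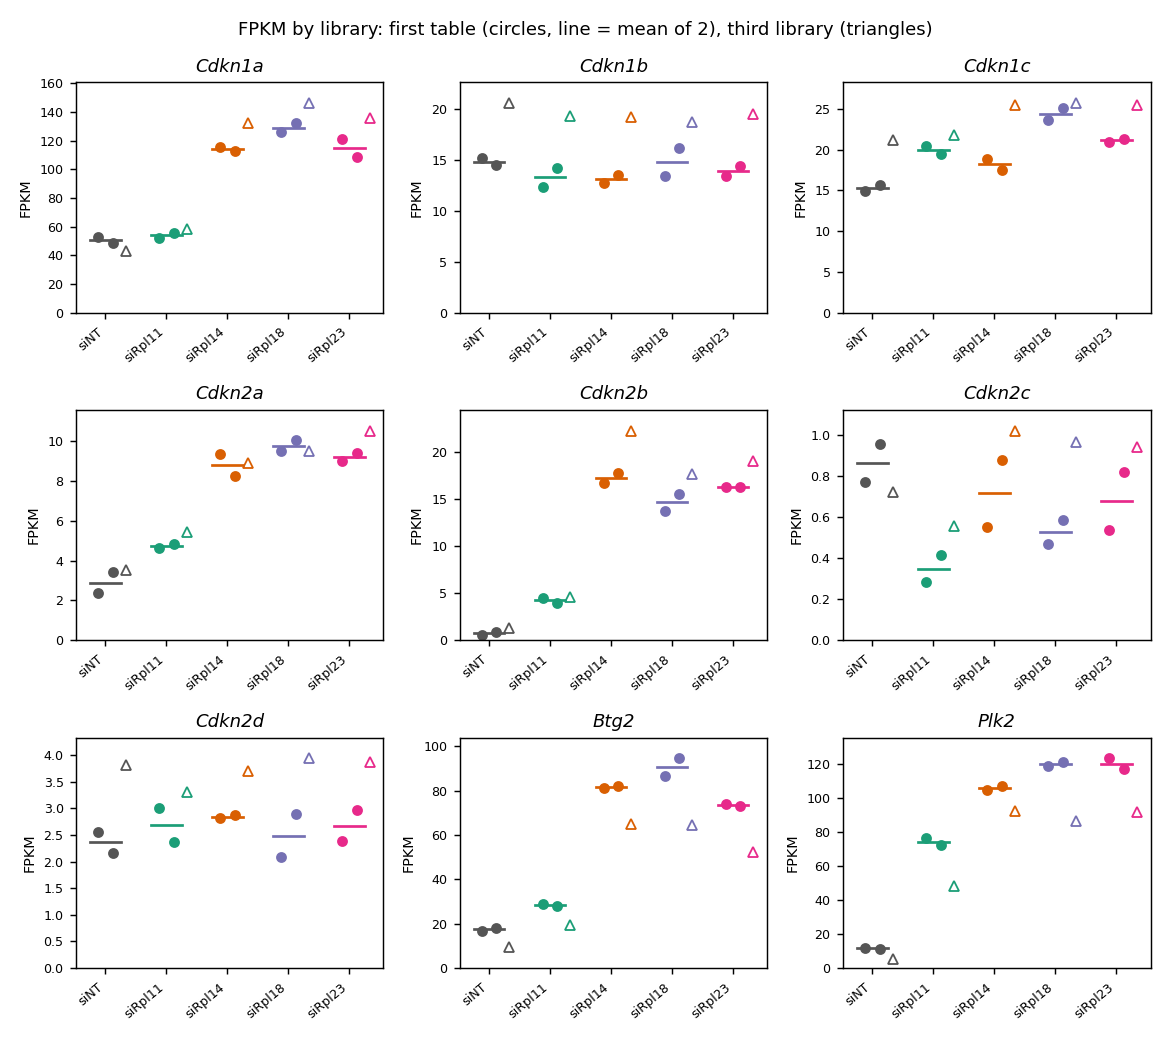
FPKM of the 9 genes in each library by siRNA group, 1 panel per gene with its own linear axis from 0. Circles are replicates 1 and 2, the line is their mean and triangles are the third libraries of the second table. Cdkn1a, Cdkn2a, Cdkn2b, Btg2 and Plk2 are highest in siRpl14, siRpl18 and siRpl23, and Cdkn1b stays between 12.4 and 16.2 FPKM in the first table.

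The INK4 genes split. Cdkn2b, under 1 FPKM in both tested siNT libraries, reached the level of Cdkn1b in siRpl14, siRpl18 and siRpl23 but not in siRpl11, Cdkn2a rose in all 4 knockdowns, and Cdkn2d was not called in any comparison. Cdkn2b was at 0.600 and 0.898 FPKM in siNT, 4.55 and 4.01 in siRpl11, 16.7 and 17.8 in siRpl14, 13.8 and 15.6 in siRpl18, and 16.3 and 16.3 in siRpl23. The groups formed 3 levels without overlap, with siRpl11 between siNT and the others. Mean FPKM was 5.71-fold that of siNT in siRpl11, 23.1-fold in siRpl14, 19.6-fold in siRpl18 and 21.8-fold in siRpl23. On the log2 scale the differences were 1.60, 3.39, 3.17 and 3.31, each ± 0.09 and called by limma. Both siNT libraries were under the 1 FPKM filter, so the gene was tested through its knockdown values and the folds rest on a low base. In the third libraries Cdkn2b was at 1.28 FPKM in siNT, 4.65 in siRpl11, 22.3 in siRpl14, 17.7 in siRpl18 and 19.1 in siRpl23.

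Cdkn2a was at 2.37 and 3.41 FPKM in siNT, 4.60 and 4.85 in siRpl11, 9.32 and 8.24 in siRpl14, 9.47 and 10.02 in siRpl18, and 8.98 and 9.40 in siRpl23. As for Cdkn2b, siRpl11 lay between siNT and the other knockdowns without overlap with either. The differences were 0.57 in siRpl11 (adjusted p = 1.07e-03), 1.34 in siRpl14, 1.48 in siRpl18 and 1.40 in siRpl23, each ± 0.11. One FPKM per gene does not separate p16 from Arf. The third libraries gave 3.54 FPKM in siNT, 5.45 in siRpl11, 8.90 in siRpl14, 9.47 in siRpl18 and 10.5 in siRpl23.

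Cdkn2d was low and level, at 2.56 and 2.17 FPKM in siNT, 3.00 and 2.36 in siRpl11, 2.82 and 2.87 in siRpl14, 2.09 and 2.89 in siRpl18, and 2.38 and 2.97 in siRpl23. The groups overlapped, apart from siRpl14 above siNT, and the third libraries lay between 3.32 and 3.94 FPKM. The differences were 0.05 to 0.20 ± 0.13, with upper 95% limits of 0.34 to 0.49, and limma called none at an adjusted or unadjusted p under 0.05. Quantile normalization made a call of the siRpl11 value (0.39, adjusted p = 0.0256). Cdkn2c did not pass the filter, with 0.772 and 0.959 FPKM in siNT, 0.283 and 0.416 in siRpl11, 0.553 and 0.878 in siRpl14, 0.468 and 0.586 in siRpl18, and 0.537 and 0.821 in siRpl23. In a fit with no filter (19388 genes) it fell in siRpl11 (-0.47 ± 0.12, adjusted p = 0.0135) and was not called in the other knockdowns. The third siRpl11 library was likewise the lowest of its table, at 0.557 FPKM, but siNT was next, at 0.722.

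Btg2 and Plk2 rose in all 4 knockdowns and differed in how far siRpl11 went. Btg2 was at 16.9 and 18.0 FPKM in siNT, 28.8 and 27.8 in siRpl11, 81.2 and 82.1 in siRpl14, 86.4 and 94.6 in siRpl18, and 73.9 and 73.0 in siRpl23. It was thus intermediate in siRpl11 and far higher in the rest. The differences were 0.67, 2.16, 2.31 and 2.01 in that order, each ± 0.05 and called by limma. In the third libraries siNT stood at 9.45 FPKM, siRpl11 at 19.4 and the others at 52.2 to 65.2.

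Plk2 was at 11.8 and 11.4 FPKM in siNT, 76.6 and 72.2 in siRpl11, 105 and 107 in siRpl14, 119 and 121 in siRpl18, and 123 and 117 in siRpl23. Here siRpl11 was nearer to the other knockdowns than to the control. The log2 differences were 2.58, 3.09, 3.27 and 3.27, each ± 0.04 and called by limma. Counted from the highest difference among 12249 genes, Plk2 was number 11 in siRpl11, 18 in siRpl14, 17 in siRpl18 and 18 in siRpl23. Cdkn2b was number 56, 7, 23 and 13 in the same order. The third libraries gave Plk2 at 4.97 FPKM in siNT, 48.0 in siRpl11, 92.2 in siRpl14, 86.7 in siRpl18 and 91.9 in siRpl23.

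In siRpl11, 5 of the 8 members tested rose and none fell, where 27.3% of all genes tested rose and 43.6% fell. The 5 were Cdkn1c, Cdkn2a, Cdkn2b, Btg2 and Plk2. Of these, Cdkn2b passed the filter only through its knockdown libraries, which holds for the counts and medians below as well. Cdkn2c was not among the 8 tested, and it fell in siRpl11 in the limma fit with no filter (-0.47, adjusted p = 0.0135). In siRpl14, 6 of 8 rose and none fell, with 33.3% of all genes higher and 29.5% lower. In siRpl18 the same 6 rose, with 32.8% of genes higher and 34.7% lower, and in siRpl23 again these 6, with 34.9% higher and 30.8% lower. The sixth gene was Cdkn1a in each case. The median difference over the 8 members was 0.47 in siRpl11, 1.25 in siRpl14, 1.41 in siRpl18 and 1.29 in siRpl23, against medians over all genes of -0.11, 0.02, -0.02 and 0.02. The 4 comparisons share the siNT libraries, so they are not independent of one another. All member calls against siNT held under the 18 alternative settings. The median of all genes in siRpl11 moved by 0.12 under quantile normalization and by 0.12 under median-ratio scaling. With that shift, the share of siRpl11 calls that were higher went from 38.5% to 50.9% under each of these settings.

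**Figure D2:**
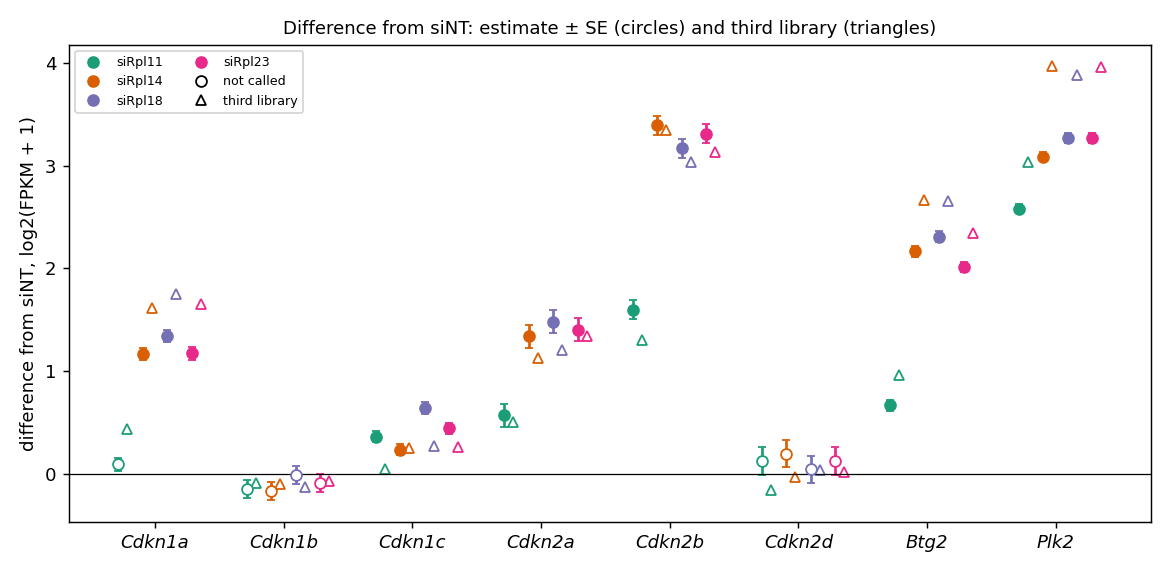
Difference from siNT in log2(FPKM + 1) for the 8 tested genes in each knockdown. Circles are limma estimates from replicates 1 and 2 with bars of ± 1 SE, open symbols were not called, and triangles are the third libraries. Plk2 and Cdkn2b lie farthest from 0, and Cdkn1a in siRpl11 lies at 0.09.

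The knockdowns were next set against each other, to ask whether siRpl11 differed from the rest in these genes. In siRpl14 against siRpl11, 5 of 8 members were higher, with 42.4% of all genes higher, and in siRpl23 against siRpl11 the same 5 were higher, with 40.8%. These were Cdkn1a, Cdkn2a, Cdkn2b, Btg2 and Plk2. In siRpl18 against siRpl11, 6 were higher, with 36.2% of all genes higher, the sixth being Cdkn1c (0.28 ± 0.05, adjusted p = 1.72e-03). Across the 3 comparisons the differences were 1.07 to 1.25 for Cdkn1a, 0.77 to 0.91 for Cdkn2a, 1.57 to 1.79 for Cdkn2b, 1.35 to 1.64 for Btg2 and 0.50 to 0.69 for Plk2. In the second table siRpl14, siRpl18 and siRpl23 were each above siRpl11 in these 5 genes as well. Cdkn1c was lower in siRpl14 than in siRpl11 by an amount that missed the threshold (-0.13, adjusted p = 0.071) and passed it under quantile normalization (-0.26), under median-ratio scaling (-0.28) and without siRpl14 replicate 1 (-0.18), whereas the third siRpl14 library was above that of siRpl11. All 3 comparisons share the siRpl11 libraries. Their shares of higher calls over all genes depend on scaling: 71.7%, 67.9% and 73.6% (siRpl14, siRpl18 and siRpl23) became 45.1%, 43.0% and 44.0% under quantile normalization and 49.4%, 48.5% and 48.9% under median-ratio scaling. The 16 member calls themselves held under both.

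Among siRpl14, siRpl18 and siRpl23 the members differed little. In siRpl18 against siRpl14, 2 members were higher, with 5.96% of all genes higher: Cdkn1c (0.41 ± 0.05, adjusted p = 2.20e-03) and Plk2 (0.18 ± 0.04, adjusted p = 0.0259). The Plk2 call ended with all 15 libraries (0.09, adjusted p = 0.673), in a fit of these groups alone (adjusted p = 0.0593) and without any 1 of the siRpl14 or siRpl18 libraries, and in the third libraries its ratio was 0.941. Cdkn1c kept its call under these settings, but its ratio in the third libraries was 1.01. In siRpl23 against siRpl18, Btg2 was lower (-0.30 ± 0.05, adjusted p = 0.0160), 1 of 8 members where 1.07% of all genes were lower, and its ratio in the third libraries was 0.807. That call ended in a fit of these groups alone (adjusted p = 0.0719), without siRpl18 replicate 2 (-0.23, adjusted p = 0.0859), without siRpl23 replicate 1 (adjusted p = 0.0860) and without siRpl23 replicate 2 (adjusted p = 0.104). In siRpl23 against siRpl14, limma called 0 of 8 members at an adjusted p under 0.05, where 0.514% of all genes were called. With all 15 libraries the count was 0 as well. At an unadjusted p under 0.05 in the main fit there were 3 members. The share of all genes at that unadjusted threshold was not counted, so the 0.514% is no measure for these 3.

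Over the 7 inhibitor genes together, transcript levels roughly doubled outside siRpl11, and their make-up shifted. The summed FPKM was 87.4 ± 2.23 (SD, n = 2) in siNT, 99.2 ± 2.60 in siRpl11, 175 ± 2.23 in siRpl14, 196 ± 9.60 in siRpl18 and 179 ± 6.69 in siRpl23. Cdkn1a made up 57.6% of the siNT sum, 54.3% in siRpl11, 65.2% in siRpl14, 66.0% in siRpl18 and 64.2% in siRpl23. Cdkn2b went from 0.860% of the sum in siNT to 4.32% in siRpl11 and 7.49% to 9.85% in the other knockdowns. Cdkn1b went from 17.0% to 13.4% in siRpl11 and 7.50% to 7.81% in the others, at a nearly constant level of its own. In the third libraries the Cdkn1a share was 45.5% in siNT, 51.3% in siRpl11 and 62.2% to 65.6% in the others, so siRpl11 lay above siNT there.  Sums of FPKM describe transcripts and not the amounts of protein.

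**Figure D3:**
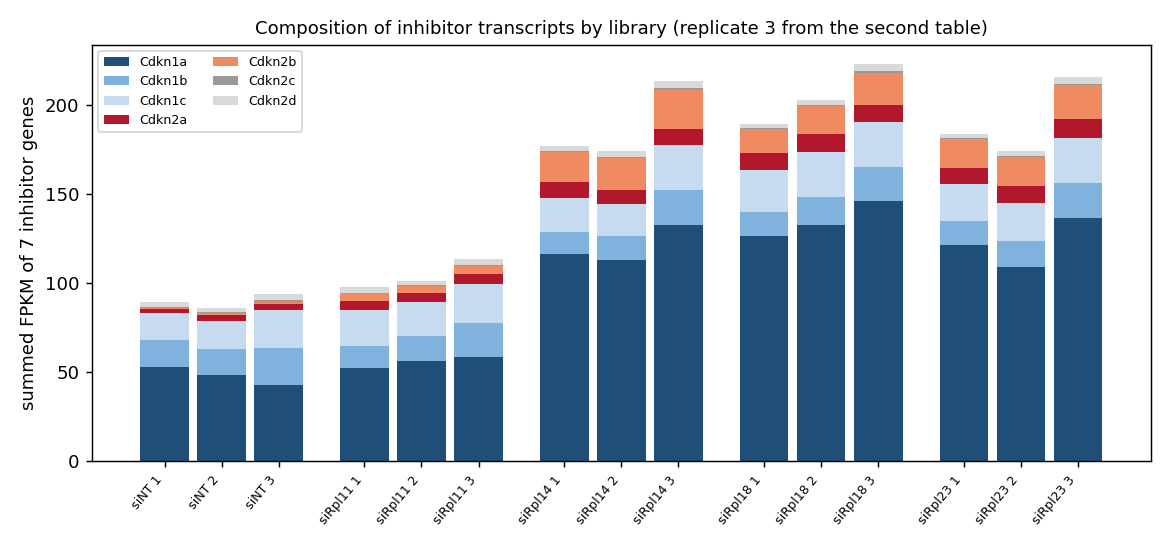
Summed FPKM of the 7 inhibitor genes in each of the 15 libraries, 1 stacked bar per library with a linear axis from 0, where replicate 3 is from the second table. The mean total of replicates 1 and 2 is 87.4 in siNT, 99.2 in siRpl11 and 175 to 196 in the other knockdowns, and Cdkn1a is the largest segment in every bar.

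Trp53, which encodes p53, and Mdm2, its inhibitor and target, did not follow the same order. Trp53 had mean FPKM of 186 in siNT, 542 in siRpl11, 304 in siRpl14, 359 in siRpl18 and 317 in siRpl23, so its transcript was highest in siRpl11, where Cdkn1a was not called. Mdm2 stood at 41.6, 143, 275, 372 and 350 FPKM in the same order, with log2 differences of 1.76, 2.70, 3.13 and 3.04. In siRpl11 the Mdm2 transcript was thus intermediate, as those of Cdkn2a, Cdkn2b and Btg2 were. Of 11 tested genes for p53 and its regulators, 6 rose and 2 fell in siRpl11, 4 and 4 in siRpl14, 4 and 3 in siRpl18, and 5 and 3 in siRpl23, with medians of 0.21, -0.03, -0.13 and -0.01. The shares over all genes were 27.3% higher and 43.6% lower in siRpl11, and 32.8% to 34.9% and 29.5% to 34.7% in the others. Trp73, a p53 relative, rose by 1.46, 2.26, 2.97 and 2.54. Usp28, a deubiquitinase that stabilizes p53, fell by 0.68, 0.96, 1.02 and 1.01. Chek1, a checkpoint kinase, rose in siRpl11 (0.24) and fell by 0.44, 0.65 and 0.47 in the others.

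A list of 35 other p53 targets was compared in the same way. In siRpl11, 24 rose and 6 fell, and in each of siRpl14, siRpl18 and siRpl23, 32 rose and 2 fell. The list's median difference was 0.49 in siRpl11, 1.12 in siRpl14, 1.25 in siRpl18 and 1.15 in siRpl23, beside the medians and shares over all genes given above. In siRpl11 the counts became 27 and 4 under quantile normalization and 26 and 5 under median-ratio scaling. Perp, a membrane protein of desmosomes and apoptosis, had 9.28 FPKM in siNT, 41.7 in siRpl11, 166 in siRpl14, 243 in siRpl18 and 191 in siRpl23. Fas, a death receptor, was at 0.180 FPKM in siNT, 2.98 in siRpl11 and 10.8 to 13.2 in the others, so it too passed the filter through the knockdowns. Xpc, which recognizes DNA damage for excision repair, fell by 0.71, 0.59, 0.57 and 0.64. Sesn1, a stress-inducible inhibitor of mTORC1, fell by 0.70, 0.56, 0.45 and 0.47. The direction of p53 targets in these libraries was known when the list was used, so its counts are a description.

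The kinases that the inhibitors block, their cyclins and their other regulators moved mostly the other way. Of 19 cyclins, cyclin-dependent kinases and their activators or inhibitory kinases, 1 rose and 14 fell in siRpl11, 4 and 14 in siRpl14, 2 and 14 in siRpl18, and 4 and 12 in siRpl23, with medians of -0.33, -0.34, -0.38 and -0.32. Among all genes tested, 27.3% rose and 43.6% fell in siRpl11, and 32.8% to 34.9% rose and 29.5% to 34.7% fell in the others. Under median-ratio scaling the siRpl11 counts became 3 and 10, with a median of -0.21, and under quantile normalization 2 and 13. Ccnd3, a D cyclin, fell from 197 FPKM in siNT to 103 in siRpl11 and 121 to 132 in the others. Ccnd2, another D cyclin, rose by 0.81 in siRpl14, 0.71 in siRpl18 and 0.92 in siRpl23. Its 0.17 in siRpl11 became a call under quantile normalization (0.40) and median-ratio scaling (0.28). The third siRpl11 library, however, had less Ccnd2 than siNT (2.78 against 4.34 FPKM). The third siRpl14, siRpl18 and siRpl23 libraries were at 4.46, 5.05 and 5.86 FPKM. Ccnd1 rose in siRpl14 (0.24), siRpl18 (0.45) and siRpl23 (0.23), but with all 15 libraries the siRpl14 and siRpl23 calls ended (0.01, adjusted p = 0.948, and -0.02, adjusted p = 0.899). Pkmyt1, a kinase that inhibits Cdk1, fell by 0.93, 0.83, 0.76 and 0.71, and Cdc25b, a phosphatase that activates it, by 0.66, 0.57, 0.62 and 0.70.

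Downstream of the D cyclins lie the pocket proteins and E2F factors, and here the transcripts diverged within the list. Of 17 genes of the Rb, E2F and DREAM group, 5 rose and 7 fell in siRpl11, 5 and 10 in siRpl14, 4 and 7 in siRpl18, and 4 and 7 in siRpl23. The medians were -0.04, -0.18, -0.09 and -0.09, and the siRpl11 median changed sign under quantile normalization (0.07, with 8 higher and 6 lower) and median-ratio scaling (0.09, with 6 and 6). Over all genes tested, 27.3% rose and 43.6% fell in siRpl11, and 32.8% to 34.9% rose and 29.5% to 34.7% fell in the others. Rb1, the retinoblastoma protein that restrains E2F, was at 2.63 FPKM in siNT, 4.13 in siRpl11, 10.8 in siRpl14, 13.5 in siRpl18 and 12.01 in siRpl23. Rbl2, a relative, rose by 0.38, 0.56, 0.86 and 0.71. The activating factors E2f1 (by 0.76, 0.69, 0.68 and 0.76) and E2f2 (by 1.65, 1.04, 0.99 and 1.13) fell in all 4, as did the pocket protein Rbl1 (by 0.60, 0.78, 0.48 and 0.67).

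**Figure D4:**
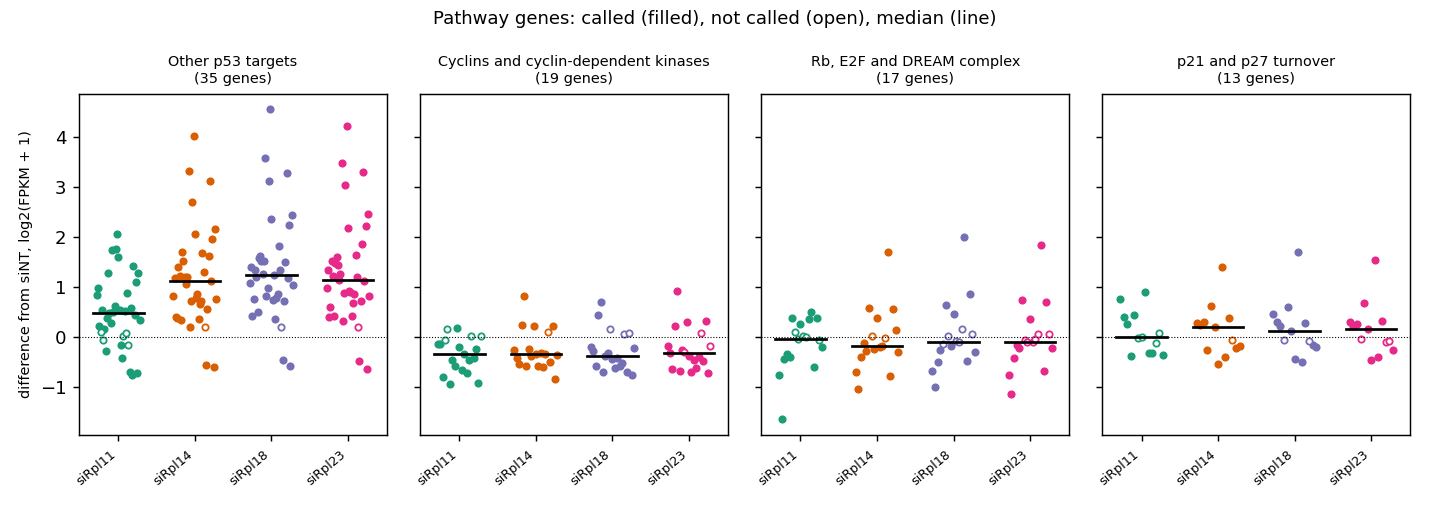
Differences from siNT in log2(FPKM + 1) for the tested genes of 4 lists (other p53 targets; cyclins and kinases; Rb, E2F and DREAM; p21 and p27 turnover), 1 panel per list and 1 column of points per knockdown. Each point is 1 gene, filled where limma called it, and the line is the list's median. The other p53 targets lie mostly above 0 and the cyclins and cyclin-dependent kinases mostly below it.

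Genes listed for the turnover of p21 and p27 were mixed, and not all of them degrade the inhibitors themselves. Of 13 genes for p21 and p27 turnover, 5 rose and 4 fell in siRpl11, 7 and 5 in siRpl14, 7 and 4 in siRpl18, and 7 and 3 in siRpl23, with medians of 0.01, 0.20, 0.12 and 0.15. Median-ratio scaling gave 8 and 4 in siRpl11, with a median of 0.14, and quantile normalization 6 and 5 in siRpl23. The shares over all genes were 27.3% higher and 43.6% lower in siRpl11, and 32.8% to 34.9% and 29.5% to 34.7% in the others. Fbxw7, the substrate receptor for cyclin E, rose from 11.9 FPKM in siNT to 22.9 in siRpl11 and 33.2 to 41.0 in the others. Cks1b, a cofactor of Skp2 in p27 degradation, rose by 0.77, 0.28, 0.47 and 0.29, and was highest in siRpl11 (356 FPKM, against 209 in siNT). Pcna, the replication clamp on which p21 is ubiquitinated, fell by 0.32, 0.39, 0.49 and 0.40. Dtl, the receptor of that ubiquitin ligase, fell by 0.54, 0.44 and 0.45 in siRpl14, siRpl18 and siRpl23. In siRpl11 Dtl was at 0.01 and not called, which became 0.14 with a call under median-ratio scaling.

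Relatives of Btg2 and Plk2 did not all share their rise. Of 11 tested BTG/TOB and CCR4-NOT genes, 2 rose and 5 fell in siRpl11, 3 and 2 in siRpl14, 4 and 0 in siRpl18, and 3 and 1 in siRpl23. In siRpl11 both scalings gave 4 and 5, and quantile normalization gave 3 and 2 in siRpl18. The medians were -0.08, 0.04, 0.17 and 0.02, and apart from that of siRpl18 each changed sign under at least 1 scaling. Over all genes tested, 27.3% rose and 43.6% fell in siRpl11, and 32.8% to 34.9% rose and 29.5% to 34.7% fell in the others. Btg1, the closest relative of Btg2, fell in siRpl11 (by 0.33) and rose by 0.87, 0.94 and 0.80 in the others, with the third libraries on the same sides of siNT. Tob1, another member of the family, fell in siRpl11 from 31.3 to 16.8 FPKM. Its differences in siRpl14, siRpl18 and siRpl23 were 0.12, 0.20 and -0.02, of which that in siRpl18 was called, a call that ended under quantile normalization (0.15, adjusted p = 0.0613), and that in siRpl14 became a call with all 15 libraries (0.16, adjusted p = 0.0192). Among the other polo-like kinases, Plk3, a stress-responsive member and also on the list of p53 targets, rose by 0.55, 0.78, 0.74 and 0.92. In the third siRpl11 library Plk3 was below siNT, at 16.1 against 17.4 FPKM. Plk1, the mitotic kinase, fell by 0.24, 0.58, 0.40 and 0.54.

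Among 11 tested Polycomb and related repressors of the Cdkn2a locus, 5 rose and 3 fell in siRpl11, 3 and 3 in siRpl14, 5 and 4 in siRpl18, and 4 and 2 in siRpl23, with medians of 0.13, -0.11, 0.02 and -0.06. In siRpl11 median-ratio scaling gave 8 and 2, with a median of 0.27. The shares over all genes were 27.3% higher and 43.6% lower in siRpl11, and 32.8% to 34.9% and 29.5% to 34.7% in the others. Bmi1, the classical repressor of Cdkn2a, rose in all 4 knockdowns, as Cdkn2a did, with 0.708 FPKM in siNT, 5.17 in siRpl11, 3.97 in siRpl14, 4.76 in siRpl18 and 5.19 in siRpl23. Both siNT libraries were under 1 FPKM, so Bmi1 passed the filter through the knockdowns. Cbx2, another Polycomb subunit, fell by 0.53, 0.54, 0.79 and 0.63. Ezh2, the methyltransferase of the locus, fell by 0.29, 0.29 and 0.28 in siRpl14, siRpl18 and siRpl23. In siRpl11 its difference was 0.10 and not called, and it was called as higher under median-ratio scaling (0.24) and with all 15 libraries (0.10, adjusted p = 0.0376).

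Of 17 transcription factors known to act on inhibitor genes, 7 rose and 4 fell in siRpl11, 7 and 3 in siRpl14, 8 and 3 in siRpl18, and 9 and 3 in siRpl23, with medians of 0.15, 0.12, 0.10 and 0.15. In siRpl11 median-ratio scaling gave 10 and 3. Over all genes, 27.3% rose and 43.6% fell in siRpl11, and 32.8% to 34.9% rose and 29.5% to 34.7% fell in the others. Mycn, of the Myc family that represses several inhibitor genes, rose most in siRpl11, from 40.9 to 145 FPKM, and reached 81.3 to 89.1 in the others. Ets1, an activator of p16 transcription, had 0.356 FPKM in siNT and 2.53 to 3.10 in siRpl14, siRpl18 and siRpl23, and was not called in siRpl11 (0.503 FPKM), so it passed the filter through these 3 knockdowns. Klf4, an activator of Cdkn1a and a pluripotency factor, fell by 0.99, 0.75, 0.26 and 0.60, and its siRpl18 call ended with all 15 libraries (-0.05, adjusted p = 0.688).

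The imprinted domain around Cdkn1c did not move as a block. Of 9 tested neighbours, 1 rose and 3 fell in siRpl11, and 4 rose and 3 fell in each of the others. One of the 9, Tnfrsf23, was under 1 FPKM in both siNT and both siRpl11 libraries. It thus passed the filter only through the other knockdowns. Under median-ratio scaling siRpl11 also had 4 and 3, so its count depends on the scaling, and its median of -0.02 became 0.03 under quantile normalization and 0.02 under median-ratio scaling. Over all genes tested, 27.3% rose and 43.6% fell in siRpl11, and 32.8% to 34.9% rose and 29.5% to 34.7% fell in the others. Cd81, a tetraspanin, rose by 0.65, 0.76 and 0.67 in siRpl14, siRpl18 and siRpl23, whereas Phlda2, a placental growth regulator expressed from the same parental allele as Cdkn1c, fell by 0.63, 0.63, 0.87 and 0.67. The siRpl11 value of Cd81 (0.03) became a call under median-ratio scaling (0.17), and the third siRpl11 library was above siNT (259 against 176 FPKM). Of 8 other imprinted growth genes tested, 4 rose and 2 fell in siRpl11, 5 and 1 in siRpl14, 5 and 1 in siRpl18, and 6 and 1 in siRpl23, with medians of 0.20, 0.47, 0.40 and 0.44. Igf2, a growth factor, rose by 0.28, 1.45, 1.56 and 1.92, its siRpl11 call ending with all 15 libraries (0.16, adjusted p = 0.139). Grb10, an inhibitor of growth signalling, fell by 1.29, 0.91, 0.73 and 0.83.

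The genes whose log2(FPKM + 1) ran most like that of 3 members were listed by Pearson's r over the 10 libraries of the first table. These libraries share their group means, so r is given as a description. For Cdkn1a these were Abhd4 (0.998), Ptp4a3, Cd81, Tdpoz4 and Fbxw9 (0.996), all near their siNT level in siRpl11 in the first table. In the second table Ptp4a3 was at 12.97 FPKM in siNT and 24.1 in siRpl11, Cd81 at 176 and 259, and Tdpoz4 at 0.574 and 0.148. Abhd4 had mean FPKM of 26.5 in siNT, 27.5 in siRpl11 and 56.1 to 61.6 in the other knockdowns. For Btg2 they were Usp4, Arhgef28, Grip1, Ripk4 and Fst (0.995 to 0.996). Ripk4 had 3.99 FPKM in siNT, 6.83 in siRpl11 and 22.1 to 25.4 in the others. For Plk2 they were Fat1 (0.997), Kidins220, Col18a1, Flcn and Sco2, of which Fat1 had 15.1 FPKM in siNT, 41.3 in siRpl11 and 53.2 to 54.5 in the others. Among the members themselves, Cdkn1a ran with Btg2 (0.978) more closely than with Plk2 (0.782), and Cdkn2a ran with Btg2 (0.982) about as closely as with Cdkn2b (0.979).

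Markers of other cell types were read because Cdkn2a and Cdkn2b are known to be high in cultured fibroblasts, and Cdkn1c in trophoblast. The summed FPKM of 8 embryonic stem cell markers was 6899 to 7301 in siNT, 5916 to 6285 in siRpl11 and 4764 to 5125 in the other knockdowns of the first table. Of the 8, 3 were higher and 4 lower in siRpl11, and 1 higher and 6 lower in each of the others. Over all genes tested, 27.3% were higher and 43.6% lower in siRpl11, not far from the marker counts there. In the others 32.8% to 34.9% were higher and 29.5% to 34.7% lower. The second table gave marker sums of 6487 in siNT, 6530 in siRpl11 and 5583 to 5881 in the others, so siRpl11 was not below siNT in this sum. The largest part of each sum was Dppa5a (4048 and 4350 FPKM in siNT of the first table). In the third siRpl11 library Nanog (123 against 293 FPKM), Zfp42 (282 against 510), Esrrb (110 against 225) and Fgf4 (67.8 against 98.9) were below siNT. Pou5f1, Sox2, Dppa5a and Utf1 were above siNT there. The sum of all 9 fibroblast markers was 16.75 to 16.85 FPKM in siNT and 4.18 to 9.50 in the knockdowns, and most of it was Thy1 (14.6 and 15.1 FPKM in siNT). Thy1 fell in every knockdown, as did Pdgfrb, which passed the filter through siNT, whereas Dcn and Lum were at 0 in all 15 libraries. Col1a1, under 1 FPKM throughout and not tested, was at 0.408 and 0.368 FPKM in siNT and 0.172 and 0.156 in siRpl11. It was higher in siRpl14, siRpl18 and siRpl23 (0.539 to 0.764), and in the third libraries as well (0.398 to 0.601 against 0.101 in siNT). The sum of all 8 trophoblast markers was 23.75 to 25.45 FPKM in siNT, 30.9 to 32.8 in siRpl11 and 51.7 to 63.75 in the others, with Prl3d1 at 0 in all 15 libraries. Of the 6 that were tested, Cdx2, Gata3, Hand1 and Krt7 were under 1 FPKM in both siNT libraries and passed through the knockdowns, so a count of those that rose shows nothing. Tfap2c, the most abundant, was at 19.7 and 18.2 FPKM in siNT, 23.2 and 22.4 in siRpl11 and 33.3 to 42.8 in the others. The sum of 7 primitive endoderm markers was 3.48 to 3.58 FPKM in siNT and 5.72 to 8.74 in the knockdowns, and the 4 that were tested (Gata4, Gata6, Dab2 and Foxa2) were likewise under 1 FPKM in both siNT libraries. The sum of 6 neural markers was 76.1 to 80.2 FPKM in siNT, 52.9 to 54.5 in siRpl11 and 90.5 to 98.8 in the others. In the third libraries it was 107.2 in siNT, 53.6 in siRpl11 and 102.5 to 105.1 in the others, which were not above siNT there. Within this sum Tubb3 was lower in siRpl11 (29.1 and 29.9 against 67.8 and 72.1 FPKM) and in every other knockdown library. Neurod1 was higher in siRpl11 (14.0 and 14.1 against 2.05 and 2.39) and in every other knockdown library. The sum of 5 mesoderm markers was at most 4.59 FPKM in the first table. The part of trophoblast and primitive endoderm markers in the results for Cdkn1c and the other members was not tested.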

How the data were processed

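RNA was measured by sequencing of stranded libraries of polyadenylated RNA, per the labels' protocols. The authors deposited FPKM per gene. The submitters' processing notes name STAR, Cuffnorm and mm9, and the sources used here give no version, annotation or setting. Replicates 1 and 2 (10 libraries) and the third libraries (5) are in separately normalized tables, and 2 columns of the first that match no sample were not used. FPKM carries no total count, so absolute depth is unknown. Relative depth was read from the step that 1 read makes between 0.005 and 0.15 FPKM.

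A gene was tested when 2 or more of the 10 libraries had at least 1 FPKM (12249 genes, with 8 of the 9 members). The model was fitted with limma 3.58.1 under R 4.3.3, by lmFit and a trended eBayes, to log2(FPKM + 1) with 1 term per group and 5 residual degrees of freedom. There were 4 contrasts with siNT and 6 between knockdowns, with Benjamini-Hochberg adjustment within each contrast. The script was tested on simulated data. The 18 alternatives were a pseudocount of 0.1, no filter, a filter of 5 FPKM, quantile normalization, median-ratio scaling, a replicate block, all 15 libraries, only the groups compared, and each of the 10 libraries left out. Up to 3 genes with the highest and up to 3 with the lowest mean difference from siNT were eligible for naming in each of 11 lists, and the 5 most similar genes for Cdkn1a, Btg2 and Plk2. Cdk4 and Cdk6 were named in addition, as the kinases that INK4 proteins bind. The members and lists were chosen with earlier results of these data known. Promoter windows came from a RefSeq table of GRCm38.p6 and were not joined to mm9 coordinates.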

Additional observations from a re-analysis of the deposited data

How the results depend on the processing

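Against siNT, 568 of 572 member values stayed on their side of the threshold, 5 of which, never called, changed sign. The other 4 became calls, as given with Cdkn1a, Cdkn1b and Cdkn2d. Between knockdowns 841 of 858 stayed on their side, 28 of them never called and changing sign, while 10 lost and 7 gained a call. Members called in siRpl18 against siRpl14 numbered 2, then 4 under median-ratio scaling, 1 with all 15 libraries, 1 with only the groups compared and 1 to 2 with a library left out. For siRpl23 against siRpl18 the count was 1, then 2 under median-ratio scaling, 0 with only the groups compared and 0 to 1 with a library left out.

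Genes called in siRpl18 against siRpl14 numbered 1747, then 988 with only the groups compared and as few as 616 without siRpl14 replicate 2. For siRpl23 against siRpl14 they numbered 63, then 35 with a pseudocount of 0.1, 23 with no filter, 11 with only the groups compared and as few as 2 without siRpl14 replicate 1. For siRpl23 against siRpl18 they numbered 430, then 267 with no filter, 66 with only the groups compared and as few as 71 without siRpl23 replicate 1. The share of higher calls went from 41.8% to 59.2% under median-ratio scaling in siRpl18 against siRpl14. In siRpl23 against siRpl18 it went from 69.5% to 54.4% under quantile normalization and 44.5% under median-ratio scaling. The causes were not tested.

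Same-numbered replicates correlated from -0.0858 to 0.195 in their deviations from group means, with 5 of 10 pairs over 0.1. A shared number was taken as a pairing only if every pair passed 0.1, so no pairing was assumed. With the number as a replicate block, genes called rose to 240 in siRpl23 against siRpl14 and 986 in siRpl23 against siRpl18, and the member counts were 5, 6, 6 and 6 against siNT and 5, 6, 5, 2, 0 and 1 between knockdowns. Unknown depth limits what can be said of Cdkn2c and of Cdkn2b in siNT.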
